A study of Mus musculus with 16 samples.

Results

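Growth hormone leaves the pituitary and binds its receptor on hepatocytes, and the liver then makes insulin-like growth factor 1 and, in male mice, large amounts of major urinary proteins. Ghr encodes the receptor, which signals through the kinase JAK2 to the transcription factors STAT5A and STAT5B. Igf1, Socs2 and Cish are direct STAT5 targets, and the proteins made from Socs2 and Cish dampen the same receptor signal. The major urinary proteins, encoded by the Mup genes, are small lipocalins that carry pheromones into urine, and in male liver they depend on the pulses in which growth hormone is released. The 10 genes described here are Ghr, Stat5a, Stat5b, Igf1, Socs2, Cish, Mup3, Mup15, Mup20 and Mup21, taken by gene name from count tables of 24539 genes; all 10 had a row in every table. The tables held 21 rows named Mup and a number, so 17 Mup rows were not among the 10 genes.

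The livers came from male C57BL/6 mice that ate either a high-fat diet (HF) or the same kind of diet with added betaine (HB), a methyl donor. Feeding began at 8 weeks of age and lasted 8 weeks, so that the mice were 16 weeks old at the end. For each diet there were 2 libraries of total mRNA and 2 of mRNA bound to ribosomes with their nascent chains (RNC mRNA). A further 2 came from RNA fragments enriched for N6-methyladenosine (m6A) by immunoprecipitation. The labels say that material from independent experiments was pooled for the mRNA and RNC libraries, so the p-values measure the spread between these libraries and not between mice. There was no group on a normal diet, and every comparison of diets is between 2 high-fat diets.

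Sequencing depth ranged from 11437462 to 22492813 reads in total mRNA, where both HB libraries were the deeper ones, and from 5778439 to 8659310 reads in RNC mRNA. Hepatocyte markers (Alb, Apoa1 and 4 others) summed to between 33570 and 49770 RPKM, read counts scaled to gene length and library size, in all 8 libraries, and the kidney and pituitary markers Umod, Slc12a1, Gh and Prl were listed at 0 in all 8. Between the HB RNC libraries the chi-square statistic over 9197 genes was 1.40 times its degrees of freedom (p = 2.39e-130), against 34.7 to 98.5 times in the other 3 pairs. The HB RNC pair, so close to sampling noise, was summed and counted as 1 sample. The HF RNC libraries differed far more: 1689 genes had no read in the first and over 20 in the second, and 1109 genes the reverse. Of 7922 genes with at least 10 CPM (read counts scaled to library size) in mRNA, 15% and 11.5% had no read in the HF RNC libraries, and 9.23% and 8.94% had none in the HB RNC libraries. In bulk liver, fewer cells of a type and less RNA per cell cannot be told apart.

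RefSeq gives a promoter window (250 bases before to 50 after an annotated start, GRCm38.p6, the mm10 assembly) for 8 of the 10 genes, all but Socs2 and Mup20. STAT5 binds the palindrome TTCNNNGAA, and the Cish window is shown because it was the only one among the 8 genes with this motif, in 2 copies whose first bases lie 11 bases apart. One copy or more stood in 8.3% of 32851 promoter windows, searched on both strands, and 2 or more in 0.457%. The first 280 bases are printed, with the motif copies in capitals. The copies span chr9:107296659-107296667 and chr9:107296670-107296678 and lie just after the annotated start. A match of letters is a description and not a shown site.
Cish chr9:107296409-107296688 plus strand: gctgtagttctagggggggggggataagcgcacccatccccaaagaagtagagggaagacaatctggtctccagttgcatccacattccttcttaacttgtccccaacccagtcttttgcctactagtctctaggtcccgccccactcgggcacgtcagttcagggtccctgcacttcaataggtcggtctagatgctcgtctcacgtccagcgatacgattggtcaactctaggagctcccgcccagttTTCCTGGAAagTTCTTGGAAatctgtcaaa

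The Mup genes show why their rows have to be read with care. All 21 Mup rows lie on chromosome 4 between 59956804 and 62150841, a stretch of 2.19 Mb. The windows of Mup15 and Mup19 were 99% identical and those of Mup15 and Mup17 98.7%, whereas Mup15 and Mup3 shared 78% and Mup3 and Mup21 93.3%. Mup19 is printed beside Mup15 because these near-identical windows belong to rows that moved by very different amounts. The capitals mark the motif TATATAA, a core promoter element. It was present in 13 of the 14 Mup windows RefSeq holds (all but Mup7) and in 3.24% of all windows, on either strand. None of the 14 had TTCNNNGAA. Counted from the annotated start, the first base of TATATAA stood at -25 in Mup15, -31 in Mup19, -11 in Mup3 and -8 in Mup21. It stood at -2 in Mup11 and at 12, after the start, in Mup14. Here too a match of letters is a description and not a shown element.
Mup15 chr4:61439675-61439954 minus strand: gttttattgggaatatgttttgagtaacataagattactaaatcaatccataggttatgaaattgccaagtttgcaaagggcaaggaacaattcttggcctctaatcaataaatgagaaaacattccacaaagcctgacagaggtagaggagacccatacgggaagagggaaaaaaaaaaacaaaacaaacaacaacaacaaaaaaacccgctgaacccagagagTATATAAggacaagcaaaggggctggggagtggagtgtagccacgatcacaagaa
Mup19 chr4:61782195-61782474 minus strand: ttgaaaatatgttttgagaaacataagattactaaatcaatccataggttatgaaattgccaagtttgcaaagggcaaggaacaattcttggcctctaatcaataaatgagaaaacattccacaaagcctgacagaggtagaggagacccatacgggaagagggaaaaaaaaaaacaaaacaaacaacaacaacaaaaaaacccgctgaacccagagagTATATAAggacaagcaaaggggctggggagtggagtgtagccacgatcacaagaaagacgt
Mup3 chr4:62087288-62087567 minus strand: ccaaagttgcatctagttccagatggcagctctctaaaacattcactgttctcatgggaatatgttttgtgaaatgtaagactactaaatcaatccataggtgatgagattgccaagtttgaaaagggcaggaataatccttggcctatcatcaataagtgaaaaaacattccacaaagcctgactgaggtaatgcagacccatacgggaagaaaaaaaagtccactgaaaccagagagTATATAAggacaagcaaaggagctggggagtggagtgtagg
Mup21 chr4:62150812-62151091 minus strand: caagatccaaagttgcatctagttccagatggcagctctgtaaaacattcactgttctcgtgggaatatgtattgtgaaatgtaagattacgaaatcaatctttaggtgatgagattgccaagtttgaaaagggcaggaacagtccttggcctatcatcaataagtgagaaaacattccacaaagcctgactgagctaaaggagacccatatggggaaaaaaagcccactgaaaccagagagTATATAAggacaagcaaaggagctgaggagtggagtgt

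Per length, the Mup genes stood far above the signalling genes in total mRNA. In HF the mean RPKM was 5211 for Mup3, 2548 for Mup20 and 283 for Mup21, followed by 178 for Igf1 and 65.8 for Ghr. Cish (16.3), Stat5b (14.9), Socs2 (10.5) and Stat5a (8.87) lay well below, and Mup15 was last at 3.68 RPKM. In that order Cish and Stat5b overlapped between libraries, as did Socs2 and Stat5a, and the other neighbours did not. In HB the order began the same way, with Mup3 at 7570, Mup20 at 5440 and Mup21 at 421 RPKM. Ghr (103 RPKM) now stood above Igf1 (72.5 RPKM), and Mup15 rose to sixth place at 62.3 RPKM, above Cish, Stat5b, Socs2 and Stat5a. Stat5b (8.18) and Socs2 (7.98) were the only neighbours whose HB libraries overlapped.

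The first comparison asks how total mRNA differed between the diets. Igf1 and Stat5a mRNA was lower with betaine, by about the same factor, while Mup15 and Mup20 mRNA was higher. So 2 of the 10 genes passed the test upward and 2 downward (edgeR quasi-likelihood F test on the 4 mRNA libraries, Benjamini-Hochberg adjusted p under 0.05 over all genes tested). Among all 12817 genes 21.4% passed, 11.3% upward and 10.1% downward. The median log2 change was 0.48 for the 10 genes and 0.01 for all genes. CPM in the next paragraphs are scaled by TMM, a factor that aligns the bulk of genes between libraries. Scaling by library totals alone shifted the median of all genes from 0.01 to -0.28 and the called genes from 1446 higher and 1294 lower to 783 higher and 2320 lower.

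**Figure D1:**
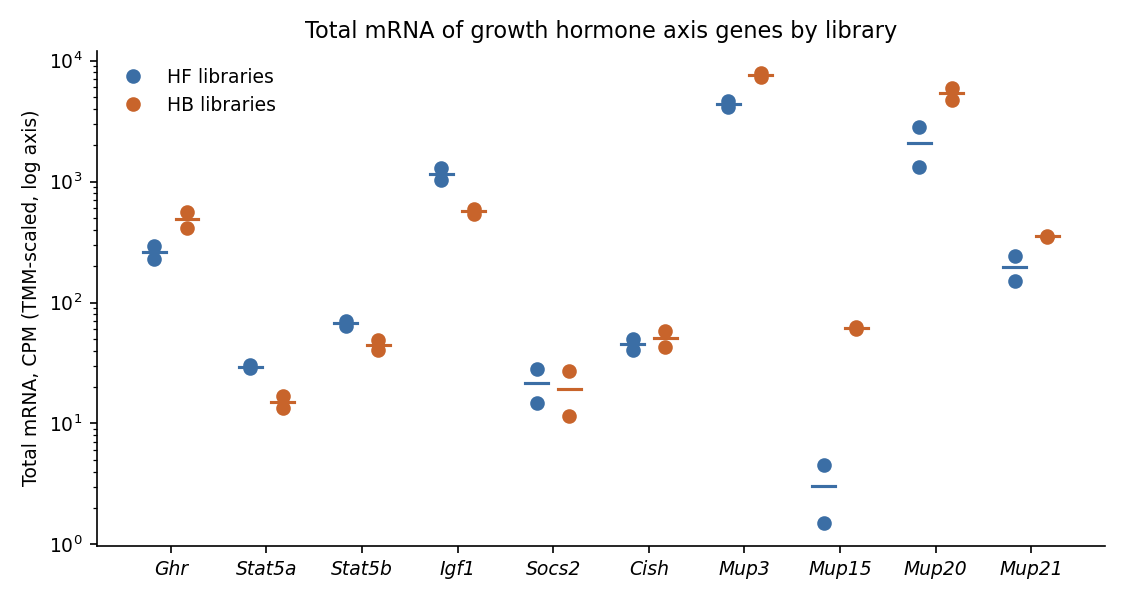
Total mRNA of the 10 genes in each library, as TMM-scaled CPM on a log axis. Points are the 2 libraries of each diet and short lines their means. The diets overlap for Socs2 and Cish, and Mup15 has the widest gap, from 1.5 and 4.55 CPM in HF to 60.6 and 62.3 CPM in HB.

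Ghr, the growth hormone receptor, spans chr15:3317755-3583352. Its mRNA was 231 and 292 CPM in HF and 556 and 417 CPM in HB. Both HB libraries were above both HF libraries, but the log2 change of 0.90 ± 0.30 (SE) did not pass (adjusted p = 0.0564). DESeq2 put it just past the threshold (adjusted p = 0.0242). With library totals as the scaling, the Ghr log2 change was 0.61 (edgeR, adjusted p = 0.159).

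Stat5a and Stat5b, neighbouring genes for the factors that carry the signal into the nucleus, both had lower values in HB. Stat5a (chr11:100859351-100885169) had 28.8 and 30.3 CPM in HF and 13.5 and 16.8 CPM in HB. It fell by 0.96 ± 0.29 on the log2 scale (adjusted p = 0.0375). Stat5b (chr11:100780731-100859004) had 64.5 and 71.0 CPM in HF and 40.6 and 49.0 CPM in HB. The diets did not overlap for either gene, and the Stat5b log2 change of -0.60 ± 0.27 did not pass (adjusted p = 0.132). With library totals as the scaling Stat5b passed too, at -0.89 (adjusted p = 0.0326).

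Igf1 (chr10:87858265-87937047), the growth factor that the liver secretes on growth hormone's signal, had 1291 and 1036 CPM in HF and 540 and 599 CPM in HB. Every HB value was below every HF value. Igf1 mRNA fell by 1.03 ± 0.29 on the log2 scale, 2.04-fold (adjusted p = 0.0301). The calls of Igf1 and Stat5a were lost without the first HF library (adjusted p = 0.245 and 0.197), the second HF library (0.0585 and 0.183) or the first HB library (0.0701 and 0.0852). Their log2 changes in those fits were -0.88, -1.22 and -0.95 for Igf1 and -1.02, -0.96 and -0.80 for Stat5a, close to those of all 4 libraries.

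The feedback inhibitors showed no difference that passed. Socs2 (chr10:95383903-95417321) had 28.2 and 14.9 CPM in HF and 27.3 and 11.5 CPM in HB. The libraries of a diet differed more than the diets did, with a log2 change of -0.15 ± 0.43 (adjusted p = 0.832). Cish (chr9:107296659-107302784) had 40.7 and 50.3 CPM in HF and 58.6 and 43.2 CPM in HB. The diets overlapped here too, with a log2 change of 0.16 ± 0.28 (adjusted p = 0.713) that turned to -0.12 with library totals.

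Mup15 (chr4:61435787-61439833) showed the widest difference of the 10 genes. It had 19 and 58 reads in the HF libraries against 1273 and 982 with betaine, or 1.5, 4.55, 60.6 and 62.3 CPM. It rose by 4.34 ± 0.45 on the log2 scale, 20.2-fold (adjusted p = 0.00403), and stayed called with each mRNA library left out in turn, at 3.74 to 5.32. Mup20 (chr4:62011337-62054143), whose protein darcin attracts females, had 1333 and 2845 CPM in HF and 4772 and 5960 CPM in HB. It rose by 1.36 ± 0.37, 2.57-fold (adjusted p = 0.0266). That call was lost without the first HF library (0.90, adjusted p = 0.198), either HB library (adjusted p = 0.0616 and 0.0887) or with library totals (1.07, adjusted p = 0.0554).

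Mup3 and Mup21 were higher in both HB libraries without passing. Mup3 (chr4:62083476-62087317) had 4116 and 4630 CPM in HF and 7869 and 7360 CPM in HB, a log2 change of 0.80 ± 0.29 (adjusted p = 0.0670). Mup21 (chr4:62147832-62150841) had 150 and 245 CPM in HF and 356 and 349 CPM in HB, a log2 change of 0.84 ± 0.32 (adjusted p = 0.0803). DESeq2 called both (adjusted p = 0.0291 and 0.0490). With library totals their log2 changes were 0.51 and 0.55 (edgeR, adjusted p = 0.200 and 0.217). The fit of the 4 mRNA libraries together with the RNC libraries had a common dispersion of 0.464, against 0.0644 in mRNA alone. In that joint fit 0 of the 10 genes and 0 of all genes passed by edgeR. Before adjustment 5 of the 10 and 1647 of all genes had a p under 0.05. Mup15 had an adjusted p of 0.241 in that fit.

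**Figure D2:**
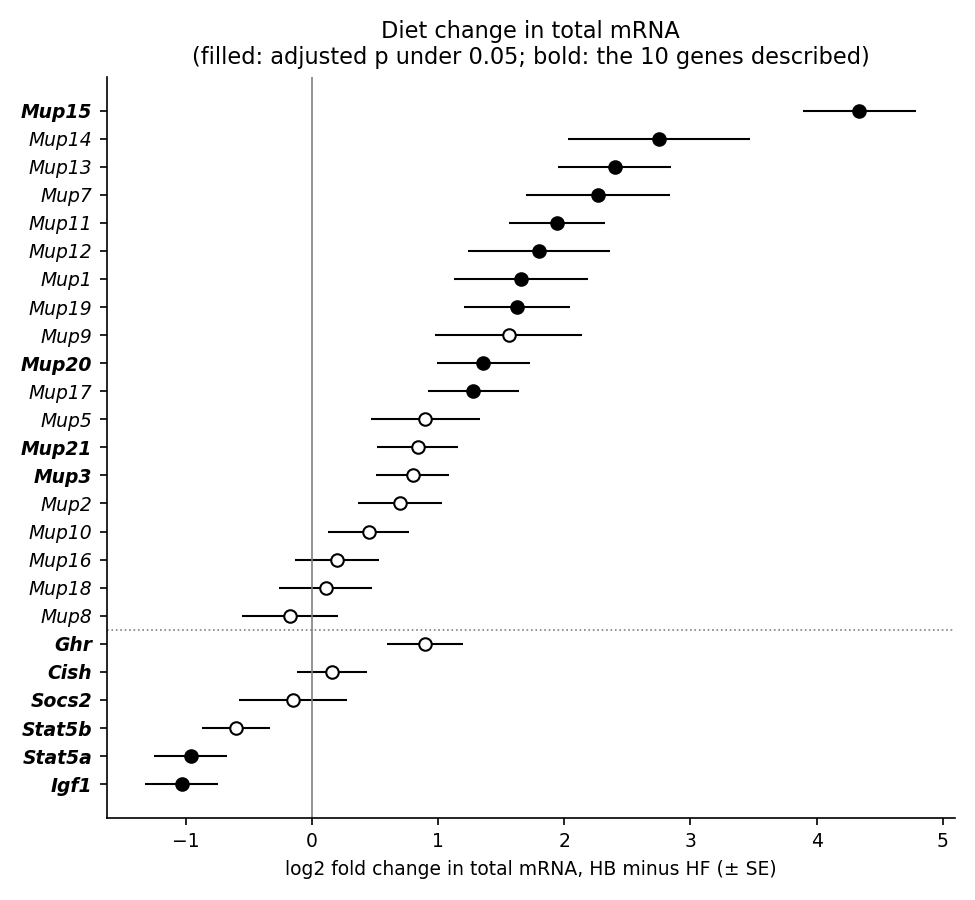
Log2 change in total mRNA, HB minus HF, with its SE, for the 10 genes (bold) and the other Mup rows tested. Filled points passed at an adjusted p under 0.05. The Mup rows reach from -0.17 for Mup8 to 4.34 for Mup15, and Igf1 at -1.03 and Stat5a at -0.96 lie at the other end.

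The rest of the Mup family leaned the same way in mRNA. Of the 15 other Mup rows tested, 8 rose and none fell, where 11.3% of all genes rose and 10.1% fell. The median log2 change was 1.56 against 0.01 over all genes (Mup4 and Mup6 had too few reads to be tested). The rows that rose were Mup14 (2.75), Mup13 (2.40), Mup7 (2.27), Mup11 (1.94), Mup12 (1.80), Mup1 (1.66), Mup19 (1.63) and Mup17 (1.28). Mup10, the most abundant row in every library, had 13860 and 19000 RPKM in HF and 15740 and 21380 in HB. The diets overlapped for it and its log2 change of 0.45 ± 0.32 did not pass (adjusted p = 0.331). Mup8 was the only one with a value below 0 (-0.17 ± 0.38, adjusted p = 0.772). Mup19, whose promoter window differs from that of Mup15 at few positions, rose 3.09-fold against 20.2-fold for Mup15; that difference between rows was not tested. The count of 8 depended on the libraries and the tool: it was 5 with DESeq2 and with library totals, 4 without the first HF or the first HB library, and 2 without the second HB library, and no Mup row fell in any of these.

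Mup rows together took 2.51% and 3.73% of the reads of the HF mRNA libraries and 3.97% and 4.79% of those with betaine. Both HB shares were above both HF shares, and the TMM-scaled sum was 1.74-fold higher in HB, on the mean of log2 values and with no test. Mup10 held 49.7% and 45.9% of these Mup reads in HF, against 35.0% and 39.5% in HB. The 4 Mup genes described here held 24.7% and 22.8% in HF and 30.7% and 25.1% in HB. How reads that fit several Mup genes were assigned is not given in the sources used here, so a rise of a single row, Mup15 included, cannot be told apart from a change in the row to which shared reads went. Whether the summed share depends on it too was not tested.

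Other genes of the growth hormone pathway and its sex-biased liver targets were read from lists drawn from general knowledge of male and female liver. Of 22 tested genes of growth hormone signalling, 2 rose and 1 fell, a smaller share than the 21.4% of all genes called, and the median log2 change was -0.23. DESeq2 gave 4 higher and 1 lower and library totals 2 higher and 4 lower (median -0.52), so the balance of directions turned with the scaling. Onecut1 (HNF6), a factor that growth hormone induces, rose by 4.58 ± 0.62 (adjusted p = 0.00403), from 1.13 and 0.464 RPKM in HF to 25.3 and 7.01 RPKM in HB. Bcl6, a repressor that is higher in male liver and competes with STAT5 at shared sites, fell by 1.55 ± 0.36 (adjusted p = 0.0143), from 12.9 and 24.9 RPKM to 4.52 and 6.16 RPKM.

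Of 20 tested genes that are higher in male liver under growth hormone pulses, 8 rose and 1 fell, where 11.3% of all genes rose and 10.1% fell, with a median log2 change of 1.02. The largest rises were in Cyp4a12b (2.43 ± 0.30, adjusted p = 0.00403) and Cyp4a12a (1.59 ± 0.31, adjusted p = 0.00892), fatty acid hydroxylases of male liver, and in Cyp2u1 (2.25 ± 0.56) and Nudt7 (2.11 ± 0.46), a peroxisomal coenzyme A diphosphatase. Cyp4a12b had 7.34 and 10.5 RPKM in HF and 42.8 and 37.4 RPKM in HB. Of 15 tested genes that are higher in female liver, 1 rose and 3 fell, with a median of -0.81; this count is near the 21.4% of all genes called. DESeq2 gave 3 higher and 5 lower, and library totals 1 higher and 6 lower. Sult1e1, an oestrogen sulfotransferase, fell by 3.02 ± 0.68 (adjusted p = 0.0138), and Cyp2b13, a cytochrome P450, fell by 3.01 ± 0.37 (adjusted p = 0.00403). Ntrk2, a neurotrophin receptor, rose by 2.61 ± 0.44 (adjusted p = 0.00604). The genes that fell were scarce in every library: Cyp2b13 had 7.13 and 8.48 RPKM in HF and 0.780 and 0.825 RPKM in HB. Some that rose were scarce too. Ntrk2 had 0.138 and 0.136 RPKM in HF and 0.723 and 0.679 RPKM in HB. Cyp2u1 had 0.26 and 1.1 RPKM in HF and 3.0 and 2.3 RPKM in HB. With 1 mRNA library left out the count of male-biased genes that rose was 3 to 8, and the female-biased median reached 0.00 without the first HF library, where 3 rose and 1 fell.

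Some markers of other cells differed as well, where 11.3% of all genes rose and 10.1% fell. At these shares 1 called marker in a list of 6 is ordinary. Of 6 Kupffer cell markers 3 rose and none fell, with a summed level of 122 and 146 RPKM in HF and 170 and 158 RPKM in HB. That count was 1 with library totals or without the first HB library, and 0 by edgeR without the first HF library. Of 6 stellate cell markers 1 rose (sums of 35.4 and 33.5 RPKM in HF, 73.3 and 43.7 RPKM in HB), and the only adipocyte marker tested rose (sums over 4 markers of 9.63 and 12.1 RPKM in HF, 22.3 and 23.3 RPKM in HB). Of 5 tested neutrophil and red cell markers 2 rose and 2 fell, while their sum was 246 and 235 RPKM in HF and 360 and 984 RPKM in HB. No marker of sinusoidal endothelium or bile duct was called. The 6 hepatocyte markers had a median log2 change of 0.35, with none past the threshold. The part of these cells in the results above was not tested.

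The second comparison asks how the same genes differed between the diets in RNC mRNA. Cish is the gene that stood out, without a read in the HF libraries and present in HB. It was the only one of the 10 genes called, upward, where 11.5% of 12634 genes passed, 7.61% upward and 3.94% downward (7 libraries, with the summed HB pair as 1 sample). DESeq2 changed the split of all called genes from 961 higher and 498 lower to 1274 higher and 1578 lower. CPM from here on are scaled over these 7 libraries.

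Cish had no read in either HF RNC library and 222 and 227 reads in HB, or 31.7 and 24.4 CPM. Against a floor of 3 reads over both HF libraries, its RNC mRNA was at least 127-fold higher in HB (adjusted p = 0.0201). The HF RNC libraries had no read and HB was 1 summed sample, so the RNC libraries show no spread for Cish. The spread in this test thus comes from the mRNA libraries and from other genes. That holds for every p-value of Cish and Mup15 from the fit of the 7 libraries. All such floors and bounds given here cover counting error only, not the spread between libraries, and the HF RNC pair is the one in which 1689 and 1109 genes had no read in one library and over 20 in the other. Cish total mRNA in HF was not low, with 516 and 641 reads, or 43.7 and 54.7 CPM on this scaling. Leaving out any 1 of the 4 mRNA libraries left 0 genes past the threshold in this comparison by edgeR, and 1920 to 2243 with a p under 0.05 before adjustment. The HF RNC libraries are those with the higher shares of expressed genes at 0 given above. The part of those missing genes in the Cish result was not tested.

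**Figure D3:**
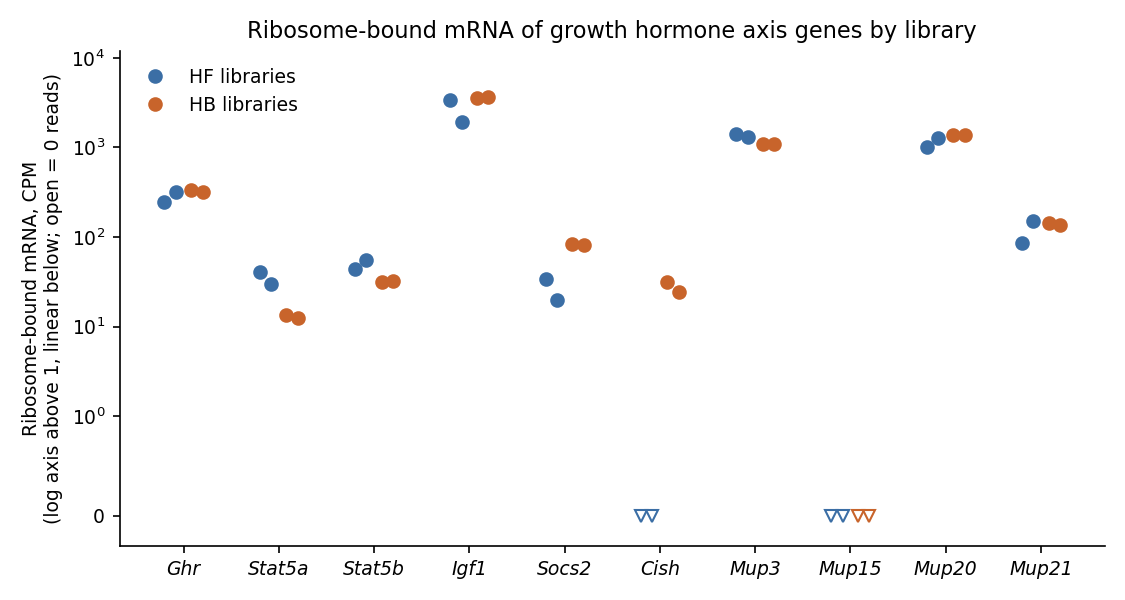
RNC mRNA of the 10 genes in each library, in TMM-scaled CPM on an axis that is logarithmic above 1 and linear below. Open triangles mark 0 reads, seen for Cish in both HF libraries and for Mup15 in all 4 libraries.

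Socs2, the other inhibitor, had 34.4 and 19.6 CPM in HF and 83.0 and 81.4 CPM in HB. Both HB libraries were above HF, and the log2 change of 1.60 ± 0.74 did not pass (adjusted p = 0.273). Stat5a had 40.7 and 30.3 CPM in HF and 13.6 and 12.4 CPM in HB, below in both, with a log2 change of -1.46 ± 0.50 (adjusted p = 0.187). DESeq2 called Stat5a lower (adjusted p = 0.00526). Stat5b, with 44.2 and 54.8 CPM in HF and 31.2 and 32.4 CPM in HB, had a log2 change of -0.63 ± 0.33 (adjusted p = 0.336).

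Igf1, which fell in total mRNA, had no lower values in the HB RNC libraries. Its RNC mRNA was 3367 and 1909 CPM in HF and 3606 and 3613 CPM in HB, with both HB values just above the higher HF value. The log2 change of 0.45 ± 0.39 did not pass (adjusted p = 0.625). Ghr had 248 and 318 CPM in HF and 337 and 315 CPM in HB, which overlapped (0.20 ± 0.33, adjusted p = 0.906).

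No Mup row passed between the diets in RNC mRNA in the edgeR fit of the 7 libraries. Mup3 had 1401 and 1298 CPM in HF and 1087 and 1095 CPM in HB, and its log2 change was -0.31 ± 0.24 (adjusted p = 0.564). Mup20 had 1000 and 1260 CPM in HF and 1366 and 1369 CPM in HB (0.28 ± 0.50, adjusted p = 0.927). Mup21 had 86.5 and 151 CPM in HF and 142 and 135 CPM in HB (0.22 ± 0.46, adjusted p = 0.966), and it turned to -0.13 without the first HF RNC library. Mup15 had no read in any RNC library, which allows up to 0.584 and 0.525 RPKM in HF and 0.518 and 0.390 RPKM in HB at 3 reads each. Of the 15 other Mup rows 0 passed in that fit, the lowest unadjusted p being 0.104 for Mup14, and 1 was lower by DESeq2; their median was 0.09. Their median was -0.43 without the first HF RNC library and 0.68 without the second, in fits that leave a single sample in each RNC group. Mup rows took 0.824% and 0.997% of the reads of the HF RNC libraries and 0.885% and 0.896% of the HB ones, and the summed level differed 1.04-fold. The order per length changed in HB, where Mup20 (1654 RPKM) stood above Mup3 (1288 RPKM) and Igf1 (547 RPKM) came next, whereas in HF Mup3 (1679 RPKM) stood above Mup20 (1442 RPKM).

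The third comparison sets RNC mRNA against total mRNA within each diet, a ratio that measures how much of a gene's mRNA sits on ribosomes relative to other genes. Of the 10 genes Igf1 had the highest log2 ratio in both diets, although in HB Socs2 (2.72) stood above it (2.48) without the first HB mRNA library. The 4 Mup genes lay below the median of all genes in both diets in the fit of the 7 libraries. In HF, Mup20 (-0.34) and Mup21 (-0.44) stood above the median (-0.53) without the second HF mRNA library. Without the first HF RNC library they stood at -0.84 and -0.50, against a median of -0.92. With no filter Mup21 (-0.85) also stood above the median (-0.92). In HF the ratio was called lower for 3 of the 10 genes (Mup3, Cish and Mup15) and higher for none, where 28.6% of all genes passed, 24.7% lower and 3.92% higher. In HB it was called lower for 3 (Mup3, Mup20 and Mup15) and higher for 1 (Igf1), where 28.4% of all genes passed, 22.0% lower and 6.36% higher. Over all genes the log2 ratio had a median of -0.56 for HF and -0.71 for HB, so that a ratio near these is ordinary here. With library totals these medians were -0.40 and -0.34. DESeq2 raised the share of called genes that were higher in HF from 13.7% to 27.6%.

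**Figure D4:**
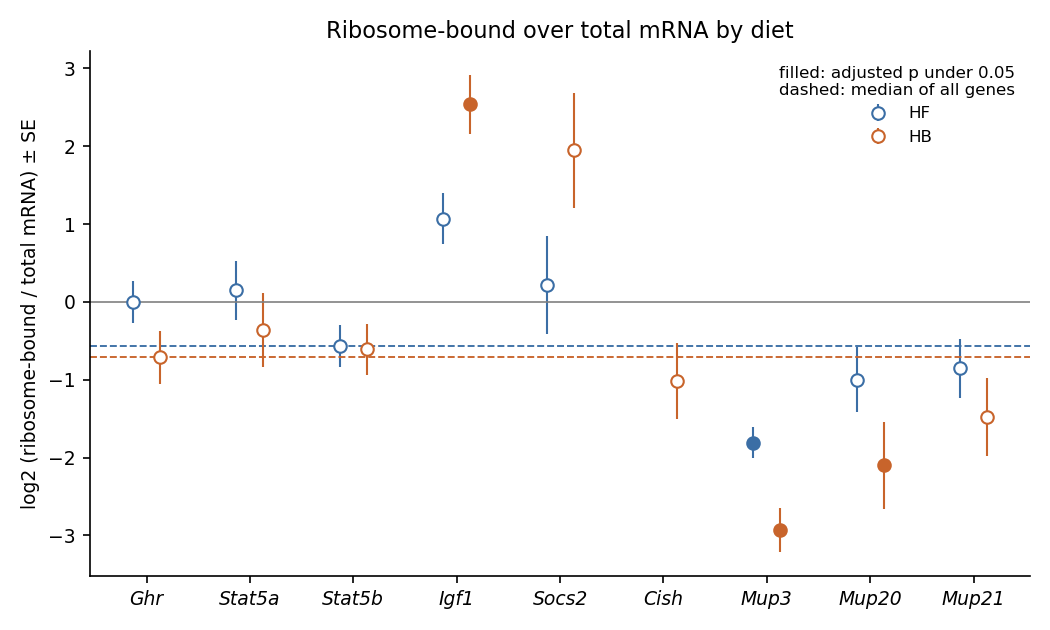
Log2 ratio of RNC over total mRNA in HF and HB with its SE; filled points passed and dashed lines are the medians of all genes, -0.56 in HF and -0.71 in HB. Igf1 is the highest of the genes drawn in both diets and Mup3 the lowest. Mup15 in both diets and Cish in HF are not drawn because their RNC libraries had 0 reads.

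Igf1 had 1387 and 1127 CPM in total mRNA and 3367 and 1909 CPM in RNC mRNA of HF, a log2 ratio of 1.07 ± 0.33 (adjusted p = 0.0733). In HB it had 595 and 647 CPM in total mRNA and 3610 CPM in the summed RNC sample, a log2 ratio of 2.54 ± 0.38 (adjusted p = 0.0181). RNC libraries lay above mRNA libraries in both diets. DESeq2 called the ratio in HF as well (1.16, adjusted p = 0.00498).

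Mup3 had 4422 and 5038 CPM in total mRNA and 1401 and 1298 CPM in RNC mRNA of HF, a log2 ratio of -1.81 ± 0.20 (adjusted p = 0.0103). In HB it had 8670 and 7959 CPM in total mRNA and 1092 CPM in RNC mRNA, a log2 ratio of -2.93 ± 0.28 (adjusted p = 0.0181). Mup20 had a log2 ratio of -1.0 ± 0.42 in HF (adjusted p = 0.158) and -2.10 ± 0.56 in HB (adjusted p = 0.0497). Its HB call was lost with library totals (-1.72, adjusted p = 0.0721) and without the second HB RNC library (adjusted p = 0.05004). Mup21 stood at -0.85 ± 0.38 in HF (adjusted p = 0.190) and -1.48 ± 0.50 in HB (adjusted p = 0.0928).

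Mup15, with no RNC read, was at least 15.2-fold lower in RNC than in total mRNA in HF and at least 364-fold lower in HB, against a floor of 3 reads over each diet's RNC libraries. These were called (adjusted p = 0.0177 and 0.0181). As in total mRNA, a low Mup15 row cannot be told apart from shared reads that went to other Mup rows. A row without reads was also not rare, since between 8.94% and 15% of the expressed genes counted above were missing from each RNC library. The part of either in the Mup15 ratios was not tested. Cish in HF was at least 228-fold lower in RNC mRNA at the same floor, counting error only (adjusted p = 0.0103), and in HB its log2 ratio was -1.02 ± 0.49 (adjusted p = 0.210). Among the 15 other Mup rows 5 were called lower and none higher in each diet, where 24.7% of all genes were called lower in HF and 22.0% in HB. Their medians were -2.36 in HF and -2.67 in HB, against -0.56 and -0.71 over all genes. DESeq2 called 9 lower in HF and 12 lower in HB, and 1 higher in each. Mup5 was the only one of these rows with a positive ratio (2.39 ± 0.77 in HF, adjusted p = 0.0820, and 2.80 ± 0.86 in HB, adjusted p = 0.0717), a row of few reads, named after its values were seen, with 3.54 to 8.37 RPKM in mRNA and 13.02 to 64.1 RPKM in RNC mRNA.

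The receptor and STAT5 genes lay near the median of all genes or above it. Ghr had a log2 ratio of 0.00 ± 0.27 in HF and -0.71 ± 0.34 in HB, Stat5a 0.15 ± 0.38 and -0.36 ± 0.47, and Stat5b -0.57 ± 0.27 and -0.61 ± 0.33. None of these passed (adjusted p of 0.191 or more). Socs2 was at 0.22 ± 0.63 in HF (adjusted p = 0.867) and 1.95 ± 0.74 in HB (adjusted p = 0.121). Leaving out any 1 of the 4 mRNA libraries left 0 genes past the threshold in either diet by edgeR, with 3602 to 4508 in HF and 3860 to 4140 in HB that had a p under 0.05 before adjustment. The Mup3 ratio then kept its sign, with an adjusted p of 0.0538 to 0.0675 in HF and 0.0762 to 0.0914 in HB.

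The change of this ratio with diet, tested as an interaction, passed for Cish alone among the 10 genes (adjusted p = 0.0319), where 10.5% of all genes passed, 6.49% upward and 4.02% downward. Among all called genes 820 were higher and 508 lower, and DESeq2 gave 1084 higher and 1121 lower; the median of all genes, 0.00, was -0.27 with DESeq2 and 0.24 with library totals. The Cish change in RNC mRNA exceeded that in total mRNA by at least 110-fold at the floor of 3 reads, which covers counting error only. Igf1 had an interaction of 1.47 ± 0.51 on the log2 scale (adjusted p = 0.204). It was 1.94 without the first HF RNC library, a fit that leaves a single sample in each RNC group. Mup3 had one of -1.12 ± 0.31, in the other direction (adjusted p = 0.114). DESeq2 and the fit with the HB RNC libraries kept apart called Mup3 (adjusted p = 0.000153 and 0.0147). The latter fit counts that pair, so close to sampling noise, as separate samples, and called 1188 of all genes higher and 865 lower. Socs2 was at 1.73 ± 0.98 (adjusted p = 0.389), Mup20 at -1.09 ± 0.67 (adjusted p = 0.428), Ghr at -0.71 ± 0.43 (adjusted p = 0.429) and Mup21 at -0.63 ± 0.61 (adjusted p = 0.690). Stat5a (-0.51 ± 0.60) and Stat5b (-0.05 ± 0.42) did not pass either.

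m6A is a methyl mark on adenosines of mRNA that often lies near the stop codon and in the last exon. The deposited lists, 1 per library, held between 22060 and 25718 peaks, and every listed fold enrichment was at least 6.00. The fold enrichment and pileup (read depth at the summit) are the authors' values. Peaks were assigned by overlap with the RefSeq span of a gene. Ghr, Cish and Mup21 had a peak in all 4 libraries, 3 of the 10 genes. Of 7731 genes with a mean mRNA of at least 10 CPM 15.9% had such a peak, and of 118 genes with at least 1000 CPM 12.7%. With 2 libraries a diet no test between diets was made.

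**Figure D5:**
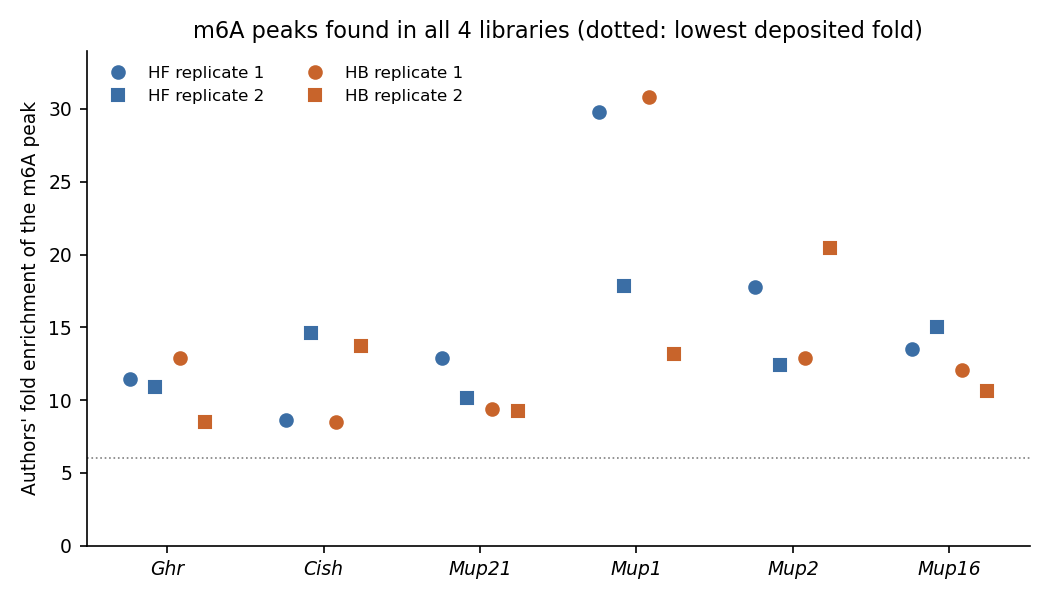
The authors' fold enrichment of peaks found in all 4 m6A libraries, for 3 of the 10 genes and 3 other Mup genes; circles and squares are replicates 1 and 2, and the dotted line is the lowest fold deposited. HF and HB values overlap for Ghr, Cish, Mup1 and Mup2.

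The Ghr peak lay close to the end of the gene, at chr15:3319551-3321191, with summits 2285 to 2754 bases from the 3′ end. Its fold enrichment was 11.5 and 10.9 in HF and 12.9 and 8.47 in HB, and its pileup was 2353 and 1966 in HF and 3885 and 2770 in HB. The HB folds lay on both sides of the HF folds. A chain of overlapping peaks at chr15:3516187-3518421, inside the gene, also touched all 4 libraries, with folds from 7.62 to 37.8. Ghr spans 266 kb, and 47 of its 60 separate peak places were seen in 1 library only.

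Cish had its peak at chr9:107300478-107301408, with summits 1742 to 1797 bases from the 3′ end. The fold was 8.66 and 14.6 in HF and 8.49 and 13.7 in HB, so replicates of a diet differed more than the diets. This mRNA, without a read in the HF RNC libraries, was thus recovered with a peak in both HF m6A libraries. Mup21 had its peak at chr4:62147857-62148225, within 211 to 217 bases of the 3′ end, with folds of 12.9 and 10.2 in HF and 9.41 and 9.24 in HB. Both HF folds were above both HB folds, with a gap between the diets smaller than the gap between the HF libraries.

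The Socs2 peak at chr10:95412457-95413082 was listed in 3 libraries, with folds of 9.30 and 14.4 in HF and 6.63 in the first HB library, and was not listed in the second HB library. Stat5a had a peak within 274 bases of its annotated start in the second HF library (fold 13.4) and the first HB library (fold 21.4). Igf1, per length the most abundant of the signalling genes in HF mRNA, had 12 separate peak places, of which 11 were in 1 library and 1 was in 2. One of them, in the second HF library, had a pileup of 1296 at a fold of 6.42, near the lowest fold listed. Stat5b had 13 places, all in 1 library each.

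Mup3, Mup15 and Mup20 had no listed peak in any m6A library, nor had the abundant Mup10. Beside Mup21, a peak in all 4 libraries was listed on Mup1, Mup2 and Mup16, with summits 1126 to 1177 bases from the lower end of each gene. The Mup16 folds were 13.5 and 15.0 in HF and 12.1 and 10.6 in HB. Mup16 had 19.7 to 35.4 RPKM in mRNA, while Mup10 had 13860 to 21380 RPKM. The Mup16 pileups were 1564 and 1854 in HF and 1283 and 829 in HB. Its row held 202 and 369 reads in the HF mRNA libraries and 494 and 445 in the HB ones. Whether peaks listed on a Mup gene hold reads of other Mup genes was not tested. Per the labels' protocol only uniquely aligned reads of the m6A libraries were kept, and reads that near-identical Mup genes share would then be missing, so the lack of a listed peak on a Mup gene does not show that its mRNA lacks m6A.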

How the data were processed

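Total mRNA, RNC mRNA and m6A fragments of HF and HB livers were measured in 2 libraries each, with the m6A inputs not analysed here. The deposited tables give a read count per gene, which the authors left unnormalized, and an RPKM value, per the file headers. The deposited peak lists give, per the file headers, a pileup signal and a fold enrichment (a ratio) for each peak, called by the authors per library. Per the labels' protocols, Trimmomatic 0.36 and TopHat 2.0.13 served to trim and align the m6A reads. Per the series' design text, sequencing reads were mapped to RefSeq RNA sequences. The submitters' processing notes also list HISAT2 2.0.4, HTSeq 0.6.0, MACS2 2.1.0.20151222 and the mm10 build. How reads shared by near-identical Mup genes were counted is not given in the sources used here.

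Counts were tested with edgeR 4.0.16 in R 4.3.3 (TMM, filterByExpr, quasi-likelihood F test, Benjamini-Hochberg over all genes kept, threshold 0.05). The mRNA comparison used the 4 mRNA libraries (12817 genes, 2 residual degrees of freedom). The RNC and ratio comparisons used 7 libraries (12634 genes, 3 residual degrees of freedom) with the HB RNC pair summed. The HB RNC group then has a single value and is assumed to vary like the other groups. SE values come from the fold change and the F statistic. Levels between genes were compared in RPKM only. Alternatives were DESeq2 1.42.0, library totals, no filter, a replicate block, the HB RNC pair kept apart, other sets of libraries and each library left out. The fits were run on simulated data with a smaller spread than that of the 7-library fit, so this does not test them at the RNC spread. Named genes were the 10 genes, other Mup rows, and from each list up to 4 called genes with the largest change. Some list genes that this rule names are not reported here. The genes and lists were chosen with earlier results of these data known. Coordinates and promoter sequences are from RefSeq (GRCm38.p6), and peaks of different libraries were joined where they shared at least 1 base.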

Additional observations from a re-analysis of the deposited data

Results flagged for a closer look

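Cish was flagged because its diet change in RNC mRNA differed from that in total mRNA by the test of the interaction (adjusted p = 0.0319, edgeR). The change in RNC mRNA exceeded that in total mRNA by at least 110.2-fold, with HF RNC mRNA set to the floor of 3 reads, a bound for counting error only. The RNC libraries add no spread of their own to the Cish test. Igf1 was flagged because both HB libraries were below HF in total mRNA and above HF in RNC mRNA, with a difference of 1.47 on the log2 scale that did not pass (adjusted p = 0.204). Mup3 was flagged for the opposite pattern, higher in HB total mRNA and lower in HB RNC mRNA, with a difference of -1.12 that did not pass by edgeR (adjusted p = 0.114). The 2 HB RNC libraries behind these patterns were counted as 1 sample.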

How the results depend on the processing

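Over the results of single genes, 448 of 537 alternatives kept the direction and the side of the threshold, 39 moved past it, 32 fell short of it and 18 reversed. The cause was not tested. Most of the results counted here were not called to begin with, and only a called one could fall short. Results of Cish and Mup15 that rest on a group with 0 RNC reads are not among them. In total mRNA, 7 of the 10 genes were called with DESeq2 and 7 with no filter, against 4, and 0 genes (0 of the 10) when fitted with the RNC libraries. Leaving out a library gave 784 to 3198 genes and 1 to 5 of the 10. In RNC mRNA DESeq2 called 2852 genes and 2 of the 10, the HB RNC pair kept apart 2419 and 2, and the RNC libraries alone 0 and 0 by edgeR (338 genes had a p under 0.05 before adjustment). Leaving out a library gave 0 to 5015 genes and 0 to 3 of the 10. The ratio in HF ranged from 0 to 7978 genes and 0 to 5 of the 10, and in HB from 0 to 8590 and 0 to 7, each with a library left out. With the HB RNC pair kept apart the HB ratio called 5428 genes and 7 of the 10. The interaction called 2205 genes and 2 of the 10 with DESeq2, 2053 and 2 with that pair kept apart, and 0 to 4898 and 0 to 3 with a library left out. For RNC mRNA, the ratios and the interaction, the highest counts with a library left out came from fits without an HF RNC library. Each RNC group then has a single sample, so the spread comes from the mRNA libraries. At a fold enrichment of at least 10, 0 of the 10 genes had an m6A peak in all 4 libraries.

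Reversals were small values. With library totals Cish mRNA was at -0.12, the Ghr ratio in HF at 0.15, the Stat5a ratio in HB at 0.02 and the Stat5b interaction at 0.17. The Ghr ratio in HF was 0.09 with DESeq2 and 0.00 with no filter. With a library left out, mRNA ranged from -0.06 to 0.38 for Cish and -0.90 to 0.38 for Socs2, and RNC mRNA from -0.13 to 0.67 for Mup21. The HF ratio ranged from -0.19 to 0.19 for Ghr, -0.08 to 0.35 for Stat5a and -0.24 to 0.73 for Socs2, and the interaction from -0.20 to 0.12 for Stat5b.

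Same-numbered libraries are not stated to be paired. Their deviations over 7856 genes correlated at -0.111 between HF and HB mRNA, and at -0.021 to 0.146 in the other pairs of groups. The highest value was that between HF mRNA and HF RNC mRNA. Whether same-numbered libraries share a source was not tested. A replicate block called 2936 genes and 5 of the 10 in mRNA, 2007 and 2 in RNC mRNA, 3897 and 4 in the HF ratio, 4775 and 6 in the HB ratio, and 1711 and 2 in the interaction. With the HB numbers crossed, an alternative chosen after seeing the data, the mRNA block called 3407 genes and 4 of the 10. For Mup15 and for Cish in HF, 0 RNC reads give bounds only.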
